A study of Mus musculus with 18 samples.

Results

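The genes described here are the SR proteins and the hnRNPs, the main groups of RNA-binding proteins that choose splice sites in pre-mRNA. Members were taken by symbol, as every gene named Srsf with a number or Hnrnp with a letter, leaving out pseudogenes and 1 hnRNP A/B gene that is usually classed with the m6A readers. The rule gave 30 genes of 55153 in the RNA-seq table, 11 SR proteins (Srsf1 to Srsf7, Srsf9 to Srsf12) and 19 hnRNPs. All 30 had Ribo-seq counts in every library and passed the filter on low counts in every comparison.

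The libraries came from cerebral cortex of mouse embryos at embryonic day 15.5, labelled as strain C57BL/6. Ctrl embryos were wild type. In F-cKO embryos Fto was removed by Emx1-Cre, and in M-cKO embryos Mettl3 was removed with the same Cre; the floxed lines were on a mixed C57BL/6 and 129 background. Each genotype had 3 RNA-seq libraries (abundance of RNA) and 3 Ribo-seq libraries (fragments protected by ribosomes), 18 in all. Emx1-Cre acts in the dorsal telencephalic lineage that gives excitatory neurons and glia, so interneurons, vessels, meninges and microglia in the tissue keep the gene. In bulk tissue fewer cells of a type and less RNA per cell cannot be told apart.

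SR proteins carry RNA recognition motifs and a tail rich in arginine and serine, and mostly promote use of the exons they bind. hnRNPs coat nascent transcripts, often repress exons, and also act in export, stability and translation of mRNA. Mettl3 writes the m6A mark on RNA and Fto can remove it. The mark is known to touch these proteins at Hnrnpc, whose uridine-rich binding sites become accessible beside m6A, and at Srsf3 and Srsf10, which the nuclear m6A reader Ythdc1 is known to recruit and to displace. Many SR and hnRNP genes control their own mRNA through exons that lead to decay. The gene counts used here pool all isoforms and do not show such exons.

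The promoter sequences of 4 members on which the results below turn are shown to place these genes. Each is the 100 bases before the outermost RefSeq start, on the gene's own strand, in build GRCm38.p6, and capitals mark matches to the CCAAT box (CCAAT or ATTGG) or the GC box (GGGCGG or CCGCCC).
Hnrnpa0 (chr13:58128557-58128656, minus strand): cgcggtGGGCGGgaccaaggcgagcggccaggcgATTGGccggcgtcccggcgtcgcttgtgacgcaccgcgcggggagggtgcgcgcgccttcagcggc
Srsf9 (chr5:115327063-115327162, plus strand): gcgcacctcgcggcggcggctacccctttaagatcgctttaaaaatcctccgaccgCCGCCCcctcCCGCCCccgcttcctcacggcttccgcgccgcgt
Srsf11 (chr3:158036668-158036767, minus strand): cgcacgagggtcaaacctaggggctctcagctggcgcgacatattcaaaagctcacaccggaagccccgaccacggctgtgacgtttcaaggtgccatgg
Hnrnpf (chr6:117900240-117900339, plus strand): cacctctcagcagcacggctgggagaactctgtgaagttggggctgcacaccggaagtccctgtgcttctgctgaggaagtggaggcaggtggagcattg
Promoter sequence was found for 28 of the 30 members. These genes have 39 promoters in the table. Over the full windows of 300 bases and on either strand, 34 of the 39 (87.2%) held the GC box, as did 35.7% of all 32851 promoters, and 19 (48.7%) held the CCAAT box, as did 37.4%. The TATA box (TATAAA or TTTATA) was found in 4 (10.3%) and in 13.6% of all promoters. The stretches of Srsf11 and Hnrnpf above hold none of these letters.

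The members lie on 16 chromosomes, and 11 of the 30 overlap another RefSeq gene. Of the genes the results turn on, Srsf9 (chr5:115327163-115333843) overlaps Gatc, and Hnrnpf (chr6:117900340-117925622) overlaps 4933440N22Rik. Hnrnpu (chr1:178321108-178338891) overlaps Cox20. Hnrnpa0 (chr13:58125879-58128556) and Srsf11 (chr3:158010915-158036667) overlap no other RefSeq gene. Whether the counting used strand is not given in the sources used here, so reads of overlapping genes cannot be told apart, and many hnRNP genes have processed copies whose treatment is also not given.

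Read totals over genes were 18504094 to 22592406 in RNA-seq and 10973699 to 35853227 in Ribo-seq, where each of the 3 Ctrl libraries was deeper than each M-cKO library. The Fto RNA level was 8.37 to 11.2 FPKM in Ctrl and 3.26, 7.56 and 2.43 FPKM in F-cKO replicates 1 to 3, so replicate 2 lay nearest to Ctrl. Fto footprints were 17.6 to 25.9 RPKM in Ctrl and 2.11 to 4.04 RPKM in F-cKO. Mettl3 RNA was 5.07 to 6.43 FPKM in Ctrl and 7.82 to 8.61 FPKM in M-cKO, higher, but the deletion takes out only exons 2 and 3 and the gene-level value counts all exons, so it does not check the label. Mettl3 footprints were 9.16 to 9.93 RPKM in Ctrl and 6.02 to 6.78 RPKM in M-cKO. The cortical markers Emx1, Tbr1 and Neurod6 were detected in all libraries. Marker lists of other cell types were also read, and no marker was at 0 in any library. Ribo-seq F-cKO replicate 2, the shallowest library, stood apart in them: its 4 endothelial markers summed to 80.4 RPKM, beside 3.93 to 8.07 RPKM in the other 8 Ribo-seq libraries, and its cortical excitatory neuron markers to 1934 RPKM, beside 3596 to 4552 RPKM.

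In Ctrl cortex the most abundant member by RNA-seq was Hnrnpa1, a repressor of splice sites, and the least abundant was Hnrnpu, a nuclear matrix protein that binds RNA and chromatin. Hnrnpa1 was at 470, 460 and 453 FPKM in the Ctrl libraries, 516, 505 and 529 FPKM in F-cKO and 473, 472 and 472 FPKM in M-cKO. The F-cKO values lay above all others. Hnrnpu was at 4.68, 3.76 and 4.16 FPKM in Ctrl, 4.88, 5.77 and 2.24 FPKM in F-cKO and 4.01, 4.03 and 3.58 FPKM in M-cKO. F-cKO thus held both the highest and the lowest Hnrnpu library. The mean levels of the 30 members in Ctrl spanned 110-fold, with a median of 55.1 FPKM.

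After Hnrnpa1, at a mean of 461 ± 8.58 FPKM (SD, n = 3), came its relatives Hnrnpa0 at 364 ± 40.2 FPKM and Hnrnpab at 274 ± 15.8 FPKM. The G-run binding Hnrnph1 followed at 160 ± 4.78 FPKM and the poly-C binding Hnrnpk at 126 ± 6.82 FPKM. The most abundant SR protein was Srsf7 at 89.5 ± 0.381 FPKM, and Srsf2, Srsf5 and Srsf6 lay between 71.9 and 82.4 FPKM. The lower end held Srsf4 (11.1 ± 0.799 FPKM), Hnrnpll (10.9 ± 0.17 FPKM), Srsf12 (8.91 ± 0.397 FPKM) and Srsf1 (5.16 ± 0.504 FPKM). Of the 29 pairs of neighbours in this order, 11 had overlapping Ctrl values, such as Srsf2 with Srsf5 and Hnrnpl with Srsf3, and are not ordered beyond their spread.

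Ribosome footprints gave another order. Hnrnpab led at 440 ± 13.7 RPKM, followed by Hnrnpa1 at 317 ± 61.0 RPKM and Hnrnph1 at 243 ± 35.0 RPKM. Hnrnpu ranked 7 of 30 in footprints at 183 ± 19.5 RPKM, and Srsf1, the founding SR protein, ranked 14 at 95.5 ± 3.87 RPKM. Hnrnpf, a G-run binding relative of Hnrnph1, was second lowest at 4.28 ± 1.47 RPKM although it ranked 17 in RNA at 49.5 ± 2.32 FPKM. Srsf12 was lowest at 3.32 ± 0.576 RPKM. Of the 29 neighbours, 18 overlapped.

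**Figure D1:**
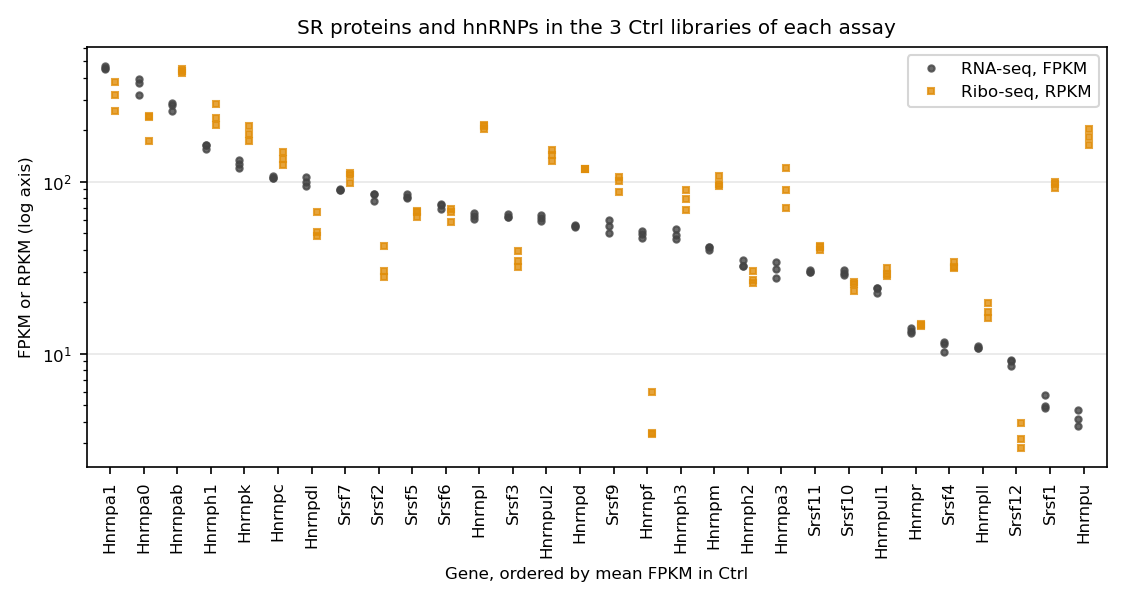
Each gene's deposited level in the 3 Ctrl libraries of RNA-seq (circles, FPKM) and Ribo-seq (squares, RPKM), on a log axis, with genes ordered by mean FPKM. Hnrnpu and Srsf1 have far more footprints than RNA and Hnrnpf far fewer.

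The ratio of Ribo-seq RPKM to RNA-seq FPKM, used here as translation efficiency (TE), had a median of 0.898 over 13374 genes in Ctrl. It was 1.52 at the median of the 19 hnRNPs and 0.895 at the median of the 11 SR proteins. Without the extremes the range ran from 0.373 for Srsf12 to 3.31 for Hnrnpl, a protein that binds CA repeats. The ratio was 43.6 for Hnrnpu (lowest and highest library 39.1 and 48.3) and 18.5 for Srsf1 (17.7 and 19.2), which placed them at percentiles 99.6 and 99.2 of all genes. It was 0.0865 for Hnrnpf (0.0692 and 0.121), at percentile 1.38. Hnrnpu and Srsf1 had similar ratios in F-cKO, at 47.3 and 16.3, and in M-cKO, at 47.1 and 15.6. The ratio of Hnrnpf was 0.132 in F-cKO, overlapping Ctrl, and 0.141 in M-cKO, where the lowest library (0.132) lay above the highest in Ctrl.

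The counts behind these 3 genes differ between the assays in the same way. Hnrnpu had 560 to 1368 reads per library in RNA-seq and 18889 to 59034 in Ribo-seq. Srsf1 had 426 to 811 reads in RNA-seq and 2971 to 16337 in Ribo-seq. Hnrnpf had 2687 to 4127 reads in RNA-seq and 230 to 541 in Ribo-seq. RNA levels of Hnrnpu and Srsf1 and footprint levels of Hnrnpf therefore rest on far fewer reads than their levels in the other assay. How reads with several matches were treated is not given in the sources used here. The cause of the unequal counts was not tested. The levels and ratios of these 3 genes are therefore not shown to reflect abundance or translation.

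**Figure D2:**
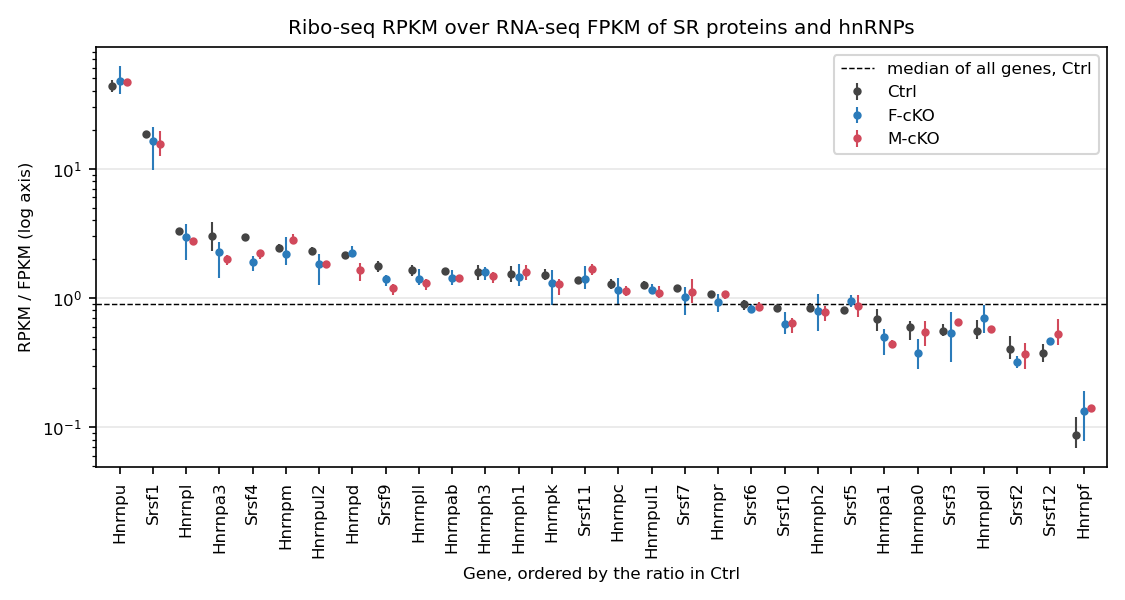
Ratio of Ribo-seq RPKM to RNA-seq FPKM for each member on a log axis, with points at the ratio of group means, bars from the lowest to the highest Ribo-seq library over the group's mean FPKM, and a dashed line at the median of all genes in Ctrl. Hnrnpu and Srsf1 stand above and Hnrnpf below the other members in all 3 genotypes.

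M-cKO was compared to Ctrl in RNA-seq, which asks which of these genes have another RNA level when Mettl3 is lost. Hnrnpa0, a binder of AU-rich RNA, rose 1.51-fold, and Hnrnpf rose 1.15-fold. The SR proteins Srsf11 and Srsf12 and the hnRNP Hnrnph1 fell, to 0.789, 0.784 and 0.849 of Ctrl. Values below are CPM, counts relative to the library total after scaling by the trimmed mean of M-values (TMM), and calls are at an adjusted p under 0.05 by edgeR's quasi-likelihood test with Benjamini-Hochberg adjustment over all genes tested.

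Hnrnpa0 RNA was at 1016, 1067 and 866 CPM in Ctrl and at 1489, 1531 and 1453 in M-cKO. Each M-cKO library lay above each Ctrl library, and the log2 fold change was 0.59 ± 0.08 (SE, adjusted p = 0.00027). Hnrnpf RNA was at 159, 152 and 146 in Ctrl and at 173, 173 and 181 in M-cKO, again without overlap (log2 fold change 0.20 ± 0.06, adjusted p = 0.0254). Srsf11, which takes part in splice site recognition, was at 256, 252 and 262 in Ctrl and at 206, 205 and 199 in M-cKO (log2 fold change -0.34 ± 0.05, adjusted p = 0.000908). Srsf12, known to counteract other SR proteins, was at 26.9, 29.2 and 28.8 in Ctrl and at 22.2, 24.2 and 20.7 in M-cKO (log2 fold change -0.35 ± 0.09, adjusted p = 0.0129). Hnrnph1 was at 962, 907 and 966 in Ctrl and at 829, 858 and 736 in M-cKO (log2 fold change -0.24 ± 0.07, adjusted p = 0.0203). For these last 3 genes every M-cKO library lay below every Ctrl library.

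Thus 5 of 30 members were called, 2 higher and 3 lower, or 16.7% of them, where 29.6% of the 16968 genes tested were called. The median log2 fold change of the members was 0.00018, beside -0.0098 for all genes. The other 25 members had log2 fold changes from -0.14 to 0.21, led by Srsf4 at 0.21 ± 0.08 (adjusted p = 0.0848). For 5 members the lowest M-cKO library exceeded the highest in Ctrl, as for 23.3% of all genes, and for 4 the reverse held, as for 21.4%. No SR protein was called higher by edgeR at this threshold. By unadjusted p under 0.05, 2 SR proteins were higher, as were 20.6% of all genes, and the calls of DESeq2 were again 2 members higher and 3 lower, beside 15.8% and 13.4% of all genes. Hnrnpa0, Srsf11 and Srsf12 were called without each library in turn. Hnrnpf was not called without M-cKO replicate 1, Ctrl replicate 2 or Ctrl replicate 3 (adjusted p up to 0.0803), and Hnrnph1 was not called without M-cKO replicate 1, Ctrl replicate 1 or Ctrl replicate 3 (adjusted p up to 0.0686).

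F-cKO was compared to the same Ctrl libraries. Here 10 members rose and 1 fell, 36.7% of the 30, where 11.5% of the 16944 genes tested rose and 9.57% fell. The log2 fold change was positive for 29 of 30 members and for 8200 of all 16944 genes, with medians of 0.16 and -0.01. The changes were small, from 1.15-fold to 1.32-fold for the members that rose. All 19 hnRNPs had a positive value, and 7 of them passed the test, as did 3 of the 11 SR proteins.

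Hnrnpm, a splicing regulator that binds GU-rich RNA, was at 334, 335 and 321 CPM in Ctrl and at 396, 433 and 411 in F-cKO (log2 fold change 0.32 ± 0.06, adjusted p = 0.00646). Hnrnpll, the relative of Hnrnpl known from lymphocyte splicing, was at 131, 127 and 128 in Ctrl and at 163, 151 and 172 in F-cKO (log2 fold change 0.33 ± 0.06, adjusted p = 0.00776). Srsf10, a splicing repressor when dephosphorylated, was at 218, 202 and 209 in Ctrl and at 244, 262 and 265 in F-cKO (log2 fold change 0.29 ± 0.06, adjusted p = 0.00909). The groups did not overlap for any of these 3 genes. Hnrnph1 was at 1096, 1127 and 1119 in F-cKO, above its Ctrl libraries given above (log2 fold change 0.24 ± 0.06, adjusted p = 0.0168). Srsf12 fell to 23.7, 21.5 and 17.7 in F-cKO, below all Ctrl libraries (log2 fold change -0.43 ± 0.11, adjusted p = 0.0232).

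The other 6 members that rose were the SR proteins Srsf4 (log2 fold change 0.40 ± 0.11) and Srsf6 (0.26 ± 0.06), the U-family members Hnrnpul1 (0.23 ± 0.05) and Hnrnpul2 (0.27 ± 0.06), and the F/H members Hnrnph2 (0.20 ± 0.06) and Hnrnpf (0.23 ± 0.07), with adjusted p of 0.0171 to 0.036. All 3 F-cKO libraries lay above all 3 Ctrl libraries for 19 members, as for 21.1% of all genes, and below them for 1 member, as for 20.6% of all genes. The members that were not called ranged from 0.01 for Hnrnpd, a binder of AU-rich RNA known in mRNA decay, to 0.19 for Hnrnpa0.

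Hnrnpm, Hnrnpll and Srsf10 were called without each library in turn. The count of members called higher was 5 without F-cKO replicate 2, the library with the highest Fto RNA of its group, 5 without Ctrl replicate 2 and 4 without Ctrl replicate 3. Srsf12 was not called without any of these 3 libraries (adjusted p up to 0.0709). How many of all genes were called in these fits is not given here. These losses are thus not shown to be particular to the members. The lowest of the 9 RNA-seq values was in Ctrl replicate 3 for 10 members, in M-cKO replicate 3 for another 10 and in F-cKO replicate 3 for 4, and the highest was in F-cKO replicate 3 for 13. Among the 7 other members the highest adjusted p over all alternatives was 0.063 to 0.128.

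The 2 comparisons above share the Ctrl libraries, so their values are set side by side only. Hnrnph1 was the one member called in opposite directions, lower in M-cKO and higher in F-cKO. Srsf12 was called lower and Hnrnpf higher in both. M-cKO compared to F-cKO, which does not use the Ctrl libraries, gave 1 member higher and 9 lower, where 27.4% of 16802 genes were called, 13.1% higher and 14.3% lower. The M-cKO libraries lay above all F-cKO libraries for 1 member, as for 22.8% of all genes, and below them for 17, as for 20.9%. Hnrnpa0 was higher in M-cKO (log2 fold change 0.39 ± 0.06, adjusted p = 0.00209). Srsf11 (-0.50 ± 0.07), Hnrnph1 (-0.48 ± 0.07), Hnrnpll (-0.42 ± 0.08), Hnrnpm (-0.35 ± 0.06) and Srsf10 (-0.34 ± 0.07) were lower in M-cKO, with adjusted p of 0.000876 to 0.00854. These 6 calls were present without each library in turn. The remaining 4, Hnrnpul2, Srsf5, Srsf6 and Hnrnph2, had log2 fold changes of -0.28 to -0.22. Hnrnpul2 was not called without M-cKO replicate 1, and each of the other 3 was not called without any of 4 or 5 libraries.

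**Figure D3:**
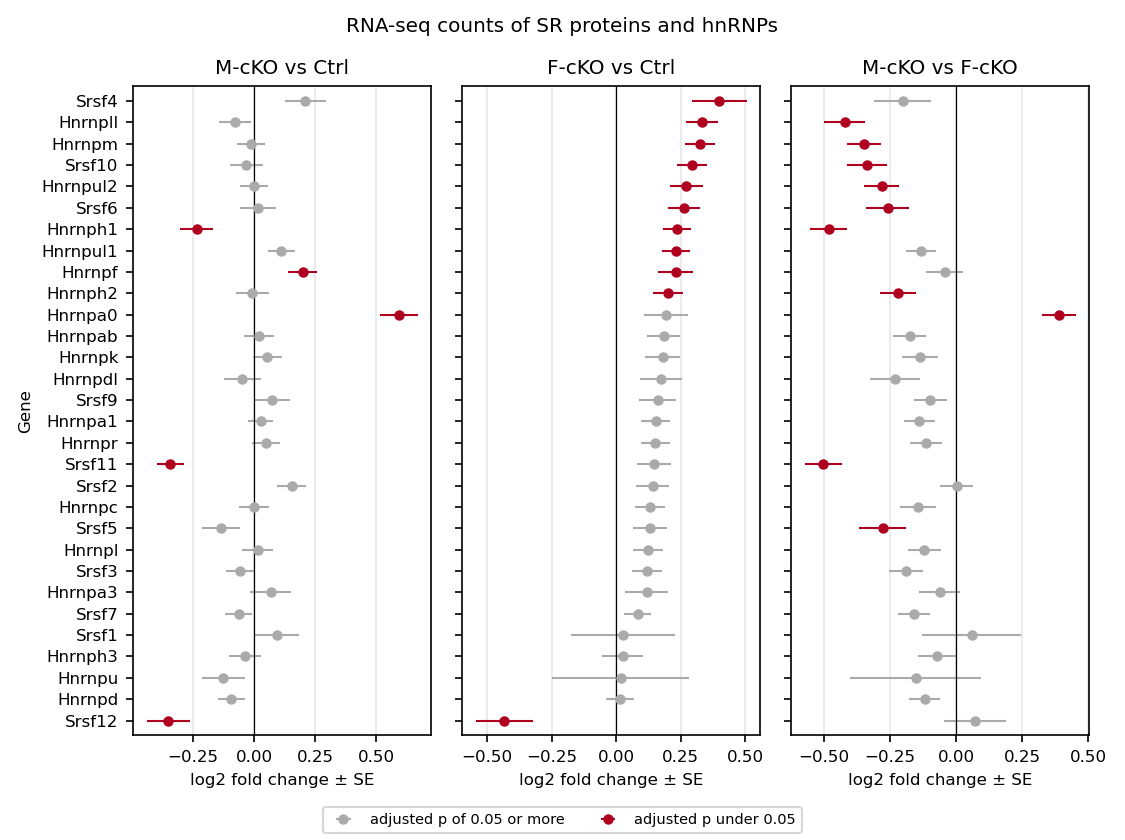
RNA-seq log2 fold change of each member with its SE (bars) in the 3 comparisons, with red for an adjusted p under 0.05 by edgeR and genes ordered by the F-cKO value; each panel has its own scale. In F-cKO 29 of 30 points lie right of 0, whereas in M-cKO Hnrnpa0 lies far right and Srsf11 and Srsf12 far left.

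Of the 3 members linked to m6A reading, Srsf10 was the one called by edgeR in any comparison. Hnrnpc RNA was at 458, 468 and 458 CPM in Ctrl, 501, 534 and 483 in F-cKO and 470, 437 and 485 in M-cKO. Its F-cKO libraries lay above the others except for M-cKO replicate 3, and the log2 fold change was 0.13 ± 0.06 in F-cKO (adjusted p = 0.138) and 3.2e-05 ± 0.06 in M-cKO. Srsf3, a small SR protein that also acts in mRNA export, was at 516, 490 and 500 in Ctrl, 546, 528 and 563 in F-cKO and 493, 502 and 461 in M-cKO. Its log2 fold changes were 0.12 ± 0.06 in F-cKO (adjusted p = 0.16) and -0.06 ± 0.06 in M-cKO (adjusted p = 0.498). Between M-cKO and F-cKO, Srsf3 RNA had a log2 fold change of -0.19 ± 0.06 (adjusted p = 0.0511 by edgeR), and DESeq2 called it lower in M-cKO (-0.18, adjusted p = 0.0248). Srsf10 RNA in M-cKO was at 217, 216 and 186, overlapping Ctrl (log2 fold change -0.03 ± 0.07).

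Hnrnpc was at 441, 476 and 527 CPM of footprints in Ctrl, 571, 425 and 474 in F-cKO and 421, 416 and 467 in M-cKO. Srsf3 was at 222, 205 and 256 in Ctrl, 337, 162 and 231 in F-cKO and 245, 285 and 264 in M-cKO. Groups overlapped for both genes. Srsf3 footprints had a log2 fold change of 0.19 ± 0.11 in M-cKO (adjusted p = 0.258) and Hnrnpc of -0.17 ± 0.10 (adjusted p = 0.265).

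As a share of all RNA-seq counts, the 11 SR proteins took 0.244%, 0.244% and 0.238% in Ctrl, 0.257%, 0.267% and 0.278% in F-cKO, and 0.236%, 0.245% and 0.218% in M-cKO. F-cKO lay above Ctrl, and M-cKO overlapped it. The 19 hnRNPs took 0.894%, 0.891% and 0.848% in Ctrl, 0.98%, 0.976% and 0.999% in F-cKO, and 0.918%, 0.94% and 0.899% in M-cKO. Both knockouts lay above Ctrl in this sum, but in M-cKO this rested on Hnrnpa0: without that gene the hnRNPs took a mean of 0.77% in M-cKO, 0.779% in Ctrl and 0.873% in F-cKO. In Ribo-seq the hnRNPs took 1.06 ± 0.0388% in M-cKO, 1.13 ± 0.0087% in Ctrl and 1.18 ± 0.136% in F-cKO (SD, n = 3), with M-cKO below Ctrl in every library. No test was made on these sums.

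Cell markers moved with the same groups. All 6 markers of cycling cells rose in RNA of both knockouts, with summed levels of 47.2 to 64.9 FPKM in Ctrl, 94.0 to 116 FPKM in F-cKO and 89.9 to 91.3 FPKM in M-cKO. Intermediate progenitor markers summed to 162 to 258 FPKM in Ctrl, 302 to 359 FPKM in F-cKO and 287 to 324 FPKM in M-cKO, with 4 and 3 of 5 called higher. Radial glia markers summed to 762 to 851 FPKM in Ctrl and 560 to 602 FPKM in M-cKO, with 3 of 8 higher and 2 lower, and to 721 to 783 FPKM in F-cKO, with 4 higher and 2 lower. The 9 markers of cortical excitatory neurons summed to 2141 to 2280 FPKM in Ctrl, 2007 to 2168 FPKM in F-cKO (4 higher, 1 lower) and 2217 to 2335 FPKM in M-cKO (5 higher, 2 lower). All 6 interneuron markers rose in M-cKO and 2 of them in F-cKO, with sums of 85.4 to 86.5 FPKM in Ctrl, 118 to 159 FPKM in M-cKO and 81.1 to 112 FPKM in F-cKO. Meningeal markers summed to 11.8 to 22.2 FPKM in Ctrl and 2.97 to 9.78 FPKM in F-cKO, with 3 of 6 lower. Erythroid marker sums overlapped Ctrl in both knockouts. Of these 7 markers 1 was called higher in M-cKO, and 1 higher and 1 lower in F-cKO. Their log2 fold changes reached 3.26 in M-cKO and 4.90 in F-cKO, beside list medians of 0.03 and -0.53. M-cKO compared to F-cKO had 5 of 6 interneuron, 3 of 6 meningeal and 5 of 7 erythroid markers higher, and 4 of 8 radial glia, 2 of 6 cycling cell and 2 of 5 intermediate progenitor markers lower. There 1 radial glia marker, 1 of 4 endothelial and 1 of 5 microglia markers were also higher, and of the 9 excitatory neuron markers 2 were higher and 3 lower. The part of cell makeup in the member results was not tested.

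In Ribo-seq, 1 member rose and 5 fell in M-cKO compared to Ctrl, beside 7.13% of the 14314 genes tested that rose and 7.5% that fell. The members that fell were Srsf9, an SR protein with 2 RNA recognition motifs, and Hnrnpd, Hnrnpa1, Srsf10 and Hnrnpll. Hnrnpf rose 1.90-fold. Of these 6 genes, Hnrnpf was the only one called in RNA-seq of M-cKO.

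Srsf9 footprints were at 144, 135 and 119 CPM in Ctrl, 118, 118 and 127 in F-cKO and 96.9, 87.9 and 102 in M-cKO. M-cKO lay below both other groups, and the log2 fold change against Ctrl was -0.50 ± 0.10 (adjusted p = 0.024). Hnrnpd was at 714, 710 and 713 in Ctrl and at 583, 448 and 551 in M-cKO (log2 fold change -0.46 ± 0.11, adjusted p = 0.0341). Hnrnpa1 was at 975, 818 and 664 in Ctrl and at 525, 543 and 581 in M-cKO (log2 fold change -0.60 ± 0.15, adjusted p = 0.0355). Its Ctrl libraries spread widely, yet all lay above M-cKO. Srsf10 was at 146, 150 and 134 in Ctrl, 157, 125 and 124 in F-cKO and 118, 95.7 and 115 in M-cKO, again lowest in M-cKO (log2 fold change -0.41 ± 0.10, adjusted p = 0.0392). Hnrnpll had a log2 fold change of -0.39 ± 0.10 (adjusted p = 0.0463). Hnrnpf was at 8.53, 8.56 and 14.97 in Ctrl, 27.0, 21.3 and 11.3 in F-cKO and 18.8, 22.5 and 20.7 in M-cKO (log2 fold change 0.93 ± 0.23, adjusted p = 0.0396).

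These footprint calls depended on single libraries and on the groups fitted. In a fit over all 3 genotypes, which share 1 estimate of the spread, none of the 6 was called (adjusted p of 0.122 to 0.225), and Hnrnpll was also not called with RLE scaling. No member was called in either direction without M-cKO replicate 1, M-cKO replicate 2, Ctrl replicate 1 or Ctrl replicate 2, and 1 was called in each direction without Ctrl replicate 3. Without M-cKO replicate 3 the same count of 5 fell and none rose. The sign of the 6 genes was the same in each alternative. How many of all genes were called in these fits is not given here. The losses are thus not shown to be particular to the members. In all, 9 members had M-cKO libraries below every Ctrl library, as did 19% of all genes, and 2 had them above, as did 19.9%. The M-cKO libraries were also the shallower ones, and the part of depth was not tested. Cell markers moved in these footprints too. Radial glia markers summed to 1909 to 2156 RPKM in Ctrl and 1044 to 1479 RPKM in M-cKO, with 1 of 8 called higher and 1 lower. Interneuron markers summed to 37.8 to 56.6 RPKM in Ctrl and 62.2 to 118 RPKM in M-cKO, with 3 of 6 called higher. Cycling cell markers overlapped in their sums, at 184 to 194 RPKM and 185 to 264 RPKM, with 3 of 6 called higher. Their part in the footprint values of the members was not tested.

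RNA and footprints of M-cKO were set against each other per gene. Hnrnpa0 footprints were at 530, 519 and 378 in Ctrl, 323, 296 and 441 in F-cKO and 658, 848 and 516 in M-cKO, with a log2 fold change in M-cKO of 0.48 ± 0.21 (adjusted p = 0.15 by edgeR), near the 0.59 of its RNA; DESeq2 called it higher (0.49, adjusted p = 0.0446). Srsf11 footprints had a log2 fold change of -0.04 ± 0.11 beside -0.34 ± 0.05 in RNA. Hnrnph1 footprints had -0.15 ± 0.13 beside -0.24 ± 0.07. Srsf12 footprints had 0.16 ± 0.22 beside -0.35 ± 0.09. Hnrnpa1 RNA was 0.03 ± 0.05 beside its footprint change of -0.60 ± 0.15.

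The difference between the assays was tested as an interaction of assay and genotype. Srsf9 was the only member called: its RNA was at 92.3, 99.1 and 84.5 in Ctrl and at 93.1, 97.6 and 101 in M-cKO, which overlapped, and its log2 TE change was -0.52 ± 0.13 (adjusted p = 0.045). Of the 13208 genes tested, 3.06% were called, 1.41% lower and 1.65% higher. The Srsf9 call was absent when any of the 6 RNA-seq libraries, Ribo-seq M-cKO replicate 2, or Ribo-seq Ctrl replicate 1 or 2 was left out, in a fit over all 3 genotypes, and with TMM over both assays together (adjusted p up to 0.178, log2 TE change -0.58 to -0.45 over all alternatives). No member was called higher by edgeR, whereas at an unadjusted p under 0.05 5 members were higher, as were 11.2% of all genes, and 7 were lower, as were 10.3%. DESeq2 called 1 member higher and 3 lower, beside 4.58% and 4.29% of the 12412 genes to which it gave an adjusted p. Hnrnpf (log2 TE change 0.78 ± 0.23, adjusted p = 0.0751) and Hnrnpa1 (-0.58 ± 0.15, adjusted p = 0.0583) had values of larger size but a wider spread, and both passed the threshold with DESeq2. For Srsf11 it was 0.35 ± 0.12 (adjusted p = 0.12).

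**Figure D4:**
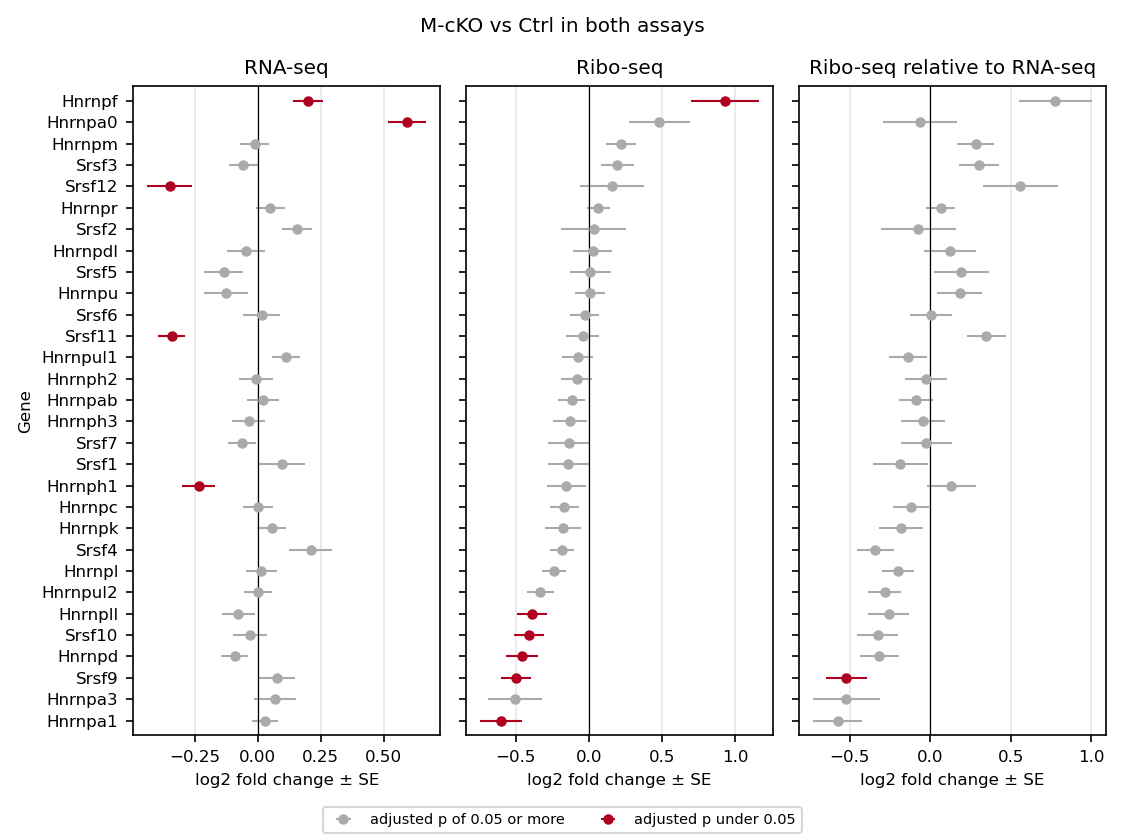
Log2 fold change of each member with its SE (bars) in M-cKO compared to Ctrl for RNA-seq, for Ribo-seq and for Ribo-seq relative to RNA-seq, with red for an adjusted p under 0.05 by edgeR and genes ordered by the Ribo-seq value; each panel has its own scale. Srsf9 lies near 0 in RNA-seq and left of 0 in the other panels, and Srsf11 and Srsf12 are red only in the RNA-seq panel.

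In F-cKO no member was called in Ribo-seq or in TE by edgeR, and neither was any other gene (0% of 14335 and of 13225 tested). DESeq2 called no member either, and 0.0501% of all genes in Ribo-seq and 0.426% in TE. At an unadjusted p under 0.05, 1 member, Srsf5, was higher in Ribo-seq, where 227 of all genes (1.58%) were higher and 91 lower. Srsf5 was at 245, 356 and 276 CPM in F-cKO and at 218, 202 and 223 in Ctrl. It was the 1 member with all F-cKO footprints above Ctrl, as in 3.65% of all genes, and Srsf4 the 1 with all below, as in 4.21%. In TE 3 members were lower, beside 3.88% of all genes, and none higher, beside 4.36%. Even Fto, with a log2 fold change of -2.67 ± 0.25 in footprints, had an adjusted p of 0.35 in this comparison. The biological coefficient of variation over all genes was 0.379 here, 0.23 in the M-cKO Ribo-seq comparison and 0.0938 in its RNA-seq comparison. As edgeR called no gene at this spread, the absence of member calls does not show that their footprints were unchanged in F-cKO.

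F-cKO replicate 2, the shallowest, held the lowest of the 9 footprint values for 10 members and the highest for 5, and F-cKO replicate 1 held the highest for 15. For Srsf1 the F-cKO footprints were 503, 275 and 449 CPM, with Ctrl at 450, 462 and 429. For Hnrnpl they were 1220, 747 and 1067, with Ctrl at 1037, 985 and 1033. In both genes replicate 2 lay below and replicate 1 above all Ctrl libraries. This is the library that stood apart in markers of other cells, such as the endothelial receptor Kdr at 3.80, 97.7 and 6.16 CPM of footprints in F-cKO replicates 1 to 3, and the part of these cells in its member values was not tested. No member was called without F-cKO replicate 2 either. Between M-cKO and F-cKO footprints edgeR called no gene, and DESeq2 called no member and 1.54% of all genes. At an unadjusted p under 0.05, 1 member was higher in M-cKO, as were 4.98% of all genes, and 3 were lower, as were 3.11%. The M-cKO footprints lay above F-cKO in every library for 1 member, as for 9.21% of all genes, and below for 6, as for 6.81%.

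**Figure D5:**
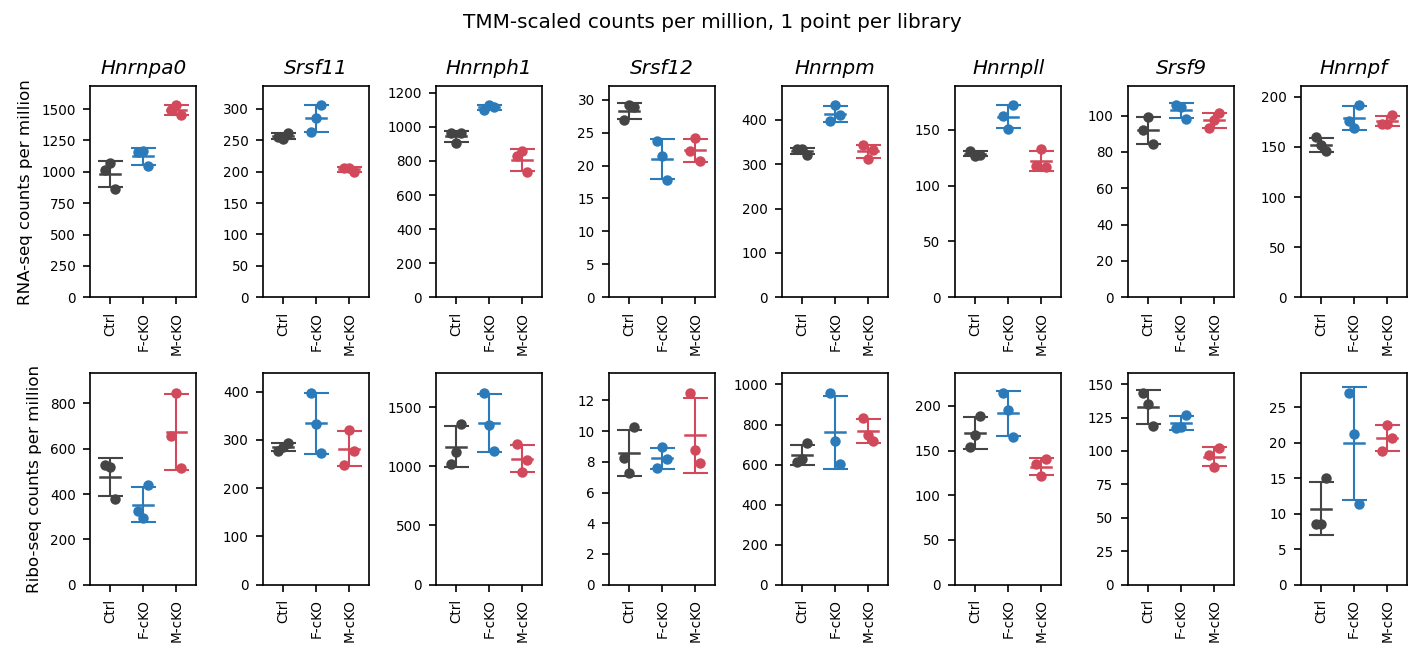
TMM-scaled CPM of 8 members in every RNA-seq (top) and Ribo-seq (bottom) library, with 1 point per library and bars at the mean ± SD of 3 libraries, each axis starting at 0. Hnrnpa0 RNA is highest in M-cKO, Hnrnpm and Hnrnpll RNA are highest in F-cKO, and Srsf9 footprints are lowest in M-cKO.

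Other genes of the splicing machinery were read from lists. Of 13 hnRNPs that carry other symbols, 8 rose and none fell in RNA of F-cKO, where 11.5% of all genes rose, among them Tardbp (log2 fold change 0.40 ± 0.06, adjusted p = 0.00396) and Ptbp1 (0.45 ± 0.10). In M-cKO 2 of the 13 rose, Khsrp (0.34 ± 0.06) and Pcbp1 (0.31 ± 0.06), and the X-linked Rbmx fell (-0.60 ± 0.07, adjusted p = 0.000146), so that 23.1% of the list was called beside 29.6% of all genes. Rbmx also fell in M-cKO footprints (-0.94 ± 0.17, adjusted p = 0.0166), as did Tardbp (-0.43 ± 0.10, adjusted p = 0.0302), while Khsrp rose there (0.40 ± 0.09). The median of this list was 0.26 in F-cKO RNA and 0.08 in M-cKO RNA.

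Of 11 measured kinases and importins that phosphorylate or carry SR proteins, 3 rose in F-cKO RNA, the importins Tnpo1 (0.55 ± 0.07, adjusted p = 0.00293) and Tnpo3 (0.24 ± 0.06) and the kinase Prpf4b (0.28 ± 0.05), or 27.3% of the list beside the 21.1% of all genes called. In M-cKO RNA the SR protein kinases Clk1 (-0.44 ± 0.10, adjusted p = 0.0083) and Clk4 (-0.35 ± 0.10) fell and 2 genes rose, led by Dyrk1a (0.28 ± 0.06), or 36.4% beside 29.6%. Tnpo3, the main importin of SR proteins, fell in M-cKO footprints (-0.49 ± 0.11, adjusted p = 0.0302), and Srpk1 had a higher TE (0.42 ± 0.10, adjusted p = 0.0376).

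Of 20 SR-related cofactors, 6 fell and 1 rose in M-cKO RNA, where 14.1% of all genes fell and 15.5% rose, with Luc7l2 (-0.36 ± 0.06, adjusted p = 0.00194), Rbm25 (-0.41 ± 0.08) and Sfswap (-0.31 ± 0.07) leading. In F-cKO RNA 4 rose, among them Scaf8 (0.30 ± 0.06) and Pnn (0.24 ± 0.06), and 2 fell, led by Srrm3 (-0.47 ± 0.07, adjusted p = 0.00409), a neuronal factor of microexons, beside 11.5% of all genes that rose and 9.57% that fell. M-cKO compared to F-cKO gave 11 lower and 1 higher in this list, beside 14.3% and 13.1% of all genes. Tra2b, a partner of SR proteins, fell in M-cKO footprints (-0.54 ± 0.09, adjusted p = 0.0138) and in TE (-0.57 ± 0.10, adjusted p = 0.0157), whereas TE of Acin1 (0.64 ± 0.10) and Sfswap (0.64 ± 0.12) was higher.

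Of 24 measured U1, U2 and Sm genes of the spliceosome core, 4 rose and 4 fell in M-cKO RNA, 33.3% beside 29.6% of all genes, and 3 rose and 1 fell in F-cKO RNA, 16.7% beside 21.1%. Sf3b1 (-0.29 ± 0.07) and Snrpd1 (-0.27 ± 0.06, adjusted p = 0.00544) fell in M-cKO and Sf3b5 (0.26 ± 0.06) rose. Snrpd1, a Sm ring protein, also fell in M-cKO footprints (-0.86 ± 0.10, adjusted p = 0.00631) and in TE (-0.54 ± 0.12, adjusted p = 0.0281), and so did TE of Snrpf (-1.18 ± 0.27, adjusted p = 0.0342), whereas TE of the U1 protein Snrnp70 was higher (0.77 ± 0.16, adjusted p = 0.0212). In F-cKO RNA Sf3b3 rose (0.45 ± 0.07, adjusted p = 0.004) and Snrpd2 fell (-0.33 ± 0.06).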

How the data were processed

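RNA-seq and Ribo-seq were measured in cortex of 3 genotypes, with 3 biological repeats per genotype and assay, grouped by the labels. The deposited tables held raw read counts per gene, FPKM for RNA-seq and RPKM for Ribo-seq, which the authors computed per length and library size. The submitters' processing notes name HISAT2 2.0.5, TopHat2, HTSeq, DESeq2 1.14.1 and build mm10; annotation, strand setting and treatment of reads with several matches are not given in the sources used here. FPKM and RPKM were used for levels, counts for tests. Counts were fitted with edgeR 4.0.16 (R 4.3.3; filterByExpr with a minimum count of 10, TMM, quasi-likelihood test) on the 6 libraries of each comparison, with Benjamini-Hochberg adjustment over all genes; TE was tested as the assay by genotype interaction over 12 libraries, with TMM within each assay. The methods were tested on simulated data with planted changes larger than those of the called members. Recovery of smaller changes was not tested there. DESeq2 1.42.0, RLE scaling, no filter, a fit over all groups, a replicate block and leaving out each library were alternatives. Among named genes, values in every library of the groups compared are given for the called members with the 4 smallest adjusted p per direction in each comparison with Ctrl, for the members with the highest and lowest FPKM, and for Srsf3, Srsf10 and Hnrnpc; of the other lists, the called genes with the 3 smallest adjusted p were eligible. Srsf1, Hnrnpl and Srsf5 footprints in F-cKO, Hnrnpa0 footprints, Kdr, Cdh5, the hnRNP sum without Hnrnpa0 and the genes named for their ratio were picked once their values had been seen. The members and lists were chosen with earlier results of these data known. P-values rest on the spread between the 3 samples within each group compared, pooled over the groups and moderated over all genes tested. The SE of a log2 fold change is its size divided by the square root of the F statistic of the quasi-likelihood test. Positions and promoter sequences are from RefSeq (GRCm38.p6). Totals per library, 10973699 to 35853227 counts, set the precision. The 40490 Ribo-seq genes that are blank in 8 libraries were left out. No protein sequence was used here.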

Additional observations from a re-analysis of the deposited data

Results flagged for a closer look

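Srsf9 stood out because the M-cKO effect differed between the assays by the test of the interaction itself: the log2 change of Ribo-seq relative to RNA-seq was -0.52 (adjusted p = 0.045 by edgeR), with footprints lower in 3 of 3 M-cKO libraries and RNA overlapping Ctrl. The difference was no longer past the threshold under 12 of 18 alternatives.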

How the results depend on the processing

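No called member changed sign under any alternative. Of the called members, 3 of 5 (RNA-seq, M-cKO), 3 of 11 (RNA-seq, F-cKO), 6 of 10 (RNA-seq, M-cKO compared to F-cKO), 0 of 6 (Ribo-seq, M-cKO) and 0 of 1 (TE, M-cKO) were called under every alternative, and all were called by DESeq2. Leaving out 1 library gave 1 to 2 higher and 2 to 3 lower members for RNA-seq of M-cKO, 4 to 9 higher and 0 to 1 lower for F-cKO, 1 higher and 6 to 8 lower for M-cKO compared to F-cKO, 0 to 1 higher and 0 to 5 lower for Ribo-seq of M-cKO, and 0 to 1 higher and 0 to 3 lower for TE of M-cKO. Within an assay, same-numbered libraries of different genotypes did not deviate together (correlations of -0.323 to 0.209), so the numbers do not pair them. Whether same-numbered RNA-seq and Ribo-seq libraries deviate together was not examined, and the TE test treats them as independent. With a replicate block the counts were 1 higher and 3 lower for RNA-seq of M-cKO, 6 and 0 for F-cKO, 1 and 7 for M-cKO compared to F-cKO, 1 and 1 for Ribo-seq of M-cKO, and 0 and 0 for TE. DESeq2 gave 2 higher and 7 lower in Ribo-seq of M-cKO, beside 11.5% and 10.8% of all genes, and 1 and 3 in TE, beside 4.58% and 4.29%. A fit over all groups gave 0 and 0 in both, and TMM over both assays together, chosen after seeing the data, gave 0 in TE. The cause was not tested. Shares of all genes called are not given for the block, the fit over all groups and the fits with 1 library left out. Lost calls there are thus not shown to be particular to the members. Without the 10 genes with most counts the RNA-seq shares were 0.253% (SR, Ctrl) and 0.919%, 1.02% and 0.961% (hnRNPs in Ctrl, F-cKO and M-cKO), and without Hnrnpa0, chosen after seeing the data, those of the hnRNPs were 0.779%, 0.873% and 0.77%. The Ribo-seq shares were 0.247%, 0.251% and 0.239% (SR) and, for hnRNPs, 1.27% in Ctrl and 1.196% in M-cKO. TE levels moved by under 1 SD in 117 of 120 alternatives. Depth limits Hnrnpf and Srsf12 footprints and Hnrnpu, Srsf1 and Srsf12 RNA most, as the smallest counts of members in any library. The unequal counts of Hnrnpu, Srsf1 and Hnrnpf between the assays recurred in every genotype, and their cause was not tested.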

Other observations

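Markers of endothelial cells, which lie outside the Emx1 lineage, were high in 1 Ribo-seq library, F-cKO replicate 2. The 4 genes (Cldn5, Pecam1, Kdr and Cdh5) summed to 4.68, 80.4 and 6.51 RPKM in F-cKO replicates 1 to 3, to 4.90 to 8.07 RPKM in Ctrl and to 3.93 to 6.00 RPKM in M-cKO. Cdh5 footprints were at 3.35, 76.1 and 5.17 CPM in these F-cKO libraries. Meningeal markers summed to 44.1 RPKM in replicate 2 and to at most 25.7 RPKM in the other Ribo-seq libraries. In RNA-seq the endothelial sum was 33.4 to 38.7 FPKM in F-cKO and 45.5 to 49.4 FPKM in Ctrl, with 1 of the 4 endothelial genes called lower.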
